A study of Mus musculus with 26 samples.

Results

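Interferon-inducible effector genes are the genes that cells switch on when an interferon reaches them, and 44 of them were listed by symbol. The table of counts held 43 of the 44, found by their Entrez identifier among 24454 genes, and the row of Rnf213 was not analysed here. All 43 passed the filter on low counts, as did 15617 genes in all. They fall into 6 groups by role: 11 GTPases of the IRG and GBP families, 10 IFIT, OAS and Mx genes, 6 RNA sensors and kinases, 6 genes of ISG15, ubiquitin and ADP-ribose enzymes, 2 transcription factors, and 8 membrane and other effectors.

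Type I interferons (interferon alpha and beta) signal through the kinases Jak1 and Tyk2 to a complex that contains Irf9 and binds the interferon-stimulated response element (ISRE). Interferon gamma, made mainly by T and NK cells, signals through Jak1 and Jak2 to genes with a gamma-activated site (GAS), and the factor Irf1 made in turn binds ISREs as well. IFIT, OAS and Mx proteins act on viral RNA and virus particles and are known mostly as type I targets, whereas the IRG and GBP GTPases, which attack the vacuoles of intracellular microbes, are known in mice as strong targets of interferon gamma. In brain, microglia and astrocytes as well as tumour cells can respond to both.

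RNA was sequenced in 26 libraries of GFP-positive cells, sorted by flow cytometry from early mouse gliomas that were micro-dissected by their GFP. All tumours were of the PDGF+Trp53-/- type, in which PDGF drives growth and the tumour suppressor Trp53 is deleted. The GFP is made by the reporter Rosa-CAG::GFP once Cre recombinase has acted. By their labels the groups were Rbpj-/- (n = 4), deleted for the DNA-binding partner of all Notch receptors, Notch1-/-Notch2-/- (n = 5), Notch1-/- (n = 6), Notch2-/- (n = 5) and control tumours with intact Notch signalling (n = 6). The labels give neither the promoter behind Cre, nor the way PDGF was supplied, nor the animals' age, and whether each library is a different animal is not stated, so that the p-values below reflect the spread among libraries, which may be technical.

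Library totals ran between 30868828 and 48103535 counts. Levels are in CPM (counts divided by library size in units of 1e6, after scaling by TMM). Rbpj had 20.4 to 52.0 CPM in Rbpj-/- libraries, the most in Rbpj-/- 4, and 52.9 to 68.0 CPM in control libraries. Notch2 had 6.14 to 8.58 CPM in Notch2-/-, 9.43 to 12.9 CPM in Notch1-/-Notch2-/- and 9.42 to 16.4 CPM in control. The Notch1-/-Notch2-/- libraries thus lay within the control range of Notch2, and these counts do not check the Notch2 deletion in that label. Notch1 counts did not fall below control in libraries labelled Notch1-/- (88.2 to 214 CPM) or Notch1-/-Notch2-/- (82.7 to 239 CPM, against 71.2 to 148 CPM in control), and since the labels do not say which exons were deleted, whole-gene counts do not check that label, so that genotype names here mean the labels. Markers of glioma and oligodendrocyte precursor cells were high throughout, with a summed level of 7880 to 20288 CPM over 10 genes. Rbpj-/- 2, Notch1-/-Notch2-/- 1 and 2 and control 1 had the X-inactivation RNA Xist at 1624 to 3465 CPM with the Y-linked gene Ddx3y at 0, whereas control 6, Notch2-/- 3 and Notch2-/- 4 had both (Xist at 71.3 to 1917 CPM, Ddx3y at 45.9 to 74.1 CPM) and are called mixed below. In bulk RNA, fewer cells of a type and less RNA per cell cannot be told apart.

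The sequences just before the start of these genes are shown first, for an IRG and a GBP GTPase, a pair of IFIT genes of unequal range, Isg15 and Irf1. RefSeq promoters of GRCm38.p6, 250 bases before to 50 bases after a transcription start, were matched to 31 of the 43 genes (34 promoters). Each was searched on both strands for the ISRE letters GAAANNGAAA (TTTCNNTTTC on the other strand) and the GAS letters TTCNNNGAA, which read the same on both strands. The 2 kinds of match can overlap. ISRE letters stood in 18 of the 31 genes (58.1%), against 3.99% of all 27025 genes with a promoter, and GAS letters in 11 of 31 (35.5%), against 9.55%. Among the GTPases 7 of 8 had ISRE and 4 of 8 GAS letters, and among the IFIT, OAS and Mx genes 4 of 7 had ISRE and 2 of 7 GAS letters. Matches are descriptions of letters, not of binding. In the following 6 promoters, each 300 bases in GRCm38.p6 and written 5′ to 3′ along the strand of the gene, capitals mark these matches.
Igtp, chr11:58199306-58199605, plus strand: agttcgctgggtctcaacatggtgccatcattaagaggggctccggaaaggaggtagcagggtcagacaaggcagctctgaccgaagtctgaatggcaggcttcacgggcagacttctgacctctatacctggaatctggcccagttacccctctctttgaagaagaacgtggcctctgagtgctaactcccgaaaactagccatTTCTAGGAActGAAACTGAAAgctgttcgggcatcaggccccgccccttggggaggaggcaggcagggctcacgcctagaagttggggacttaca
Gbp2, chr3:142620413-142620712, plus strand: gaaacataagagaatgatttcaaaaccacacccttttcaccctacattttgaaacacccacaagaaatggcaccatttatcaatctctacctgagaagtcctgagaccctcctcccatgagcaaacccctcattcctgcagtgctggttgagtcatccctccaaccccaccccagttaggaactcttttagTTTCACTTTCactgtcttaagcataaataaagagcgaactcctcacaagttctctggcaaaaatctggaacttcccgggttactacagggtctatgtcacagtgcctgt
Ifit3, chr19:34583279-34583578, plus strand: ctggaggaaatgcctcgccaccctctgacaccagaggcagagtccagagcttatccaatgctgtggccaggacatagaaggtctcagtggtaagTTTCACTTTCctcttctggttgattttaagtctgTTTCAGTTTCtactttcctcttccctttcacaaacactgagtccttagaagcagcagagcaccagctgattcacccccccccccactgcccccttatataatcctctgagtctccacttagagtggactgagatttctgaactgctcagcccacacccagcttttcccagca
Ifit2, chr19:34550444-34550743, plus strand: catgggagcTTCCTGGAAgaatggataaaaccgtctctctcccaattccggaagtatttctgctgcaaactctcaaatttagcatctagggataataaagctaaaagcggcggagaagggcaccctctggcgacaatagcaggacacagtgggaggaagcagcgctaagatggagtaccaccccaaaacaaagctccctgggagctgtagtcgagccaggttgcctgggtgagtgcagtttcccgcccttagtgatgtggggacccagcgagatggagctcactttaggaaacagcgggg
Isg15, chr4:156200769-156201068, minus strand: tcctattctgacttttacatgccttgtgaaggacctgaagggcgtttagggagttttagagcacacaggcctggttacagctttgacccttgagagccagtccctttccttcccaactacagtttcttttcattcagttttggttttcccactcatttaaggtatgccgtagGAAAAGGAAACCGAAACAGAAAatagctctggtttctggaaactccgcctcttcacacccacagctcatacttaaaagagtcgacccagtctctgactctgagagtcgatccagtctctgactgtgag
Irf1, chr11:53769764-53770063, plus strand: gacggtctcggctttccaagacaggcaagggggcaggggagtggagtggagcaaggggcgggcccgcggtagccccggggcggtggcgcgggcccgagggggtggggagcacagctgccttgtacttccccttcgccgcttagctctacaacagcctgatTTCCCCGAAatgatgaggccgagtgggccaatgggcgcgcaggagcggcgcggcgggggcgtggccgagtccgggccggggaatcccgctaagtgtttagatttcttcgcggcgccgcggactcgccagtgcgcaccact

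In Igtp, an IRG GTPase, the GAS letters at position -45 from the start end just before the ISRE letters at -34, and Irgm2, its neighbour on chromosome 11, has the same order at -75 and -64. Gbp2 has a single ISRE match at -59. In Ifit3 a pair of matches lies at -156 and -122, and the promoters of Ifit3b and Ifit1, further along chromosome 19, likewise hold a pair each. The first start of Ifit2 has a GAS match at -241 and no ISRE letters in the window, and its other start has neither. Isg15 has 3 overlapping ISRE matches from -78 to -66, and Irf1 a GAS match at -90 with no ISRE letters in the window. Letters and range did not go together throughout: Ifi47, Oasl2 and Xaf1 have neither kind of match in the window, and their highest library exceeded their lowest 3028-fold, 113-fold and 127-fold. What these letters contribute to the levels described next was not tested.

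The levels of these genes varied widely between libraries of the same genotype. In 12 of the 26 libraries at least 39 of the 43 genes were above their own median over all libraries. In 13 others at most 8 were, and Notch1-/- 4 was alone in between with 29. Each genotype had libraries of both kinds: the 12 were Rbpj-/- 4, Notch1-/-Notch2-/- 4 and 5, Notch1-/- 1, 2 and 6, Notch2-/- 2, and control 2 to 6. The summed level of the 43 genes ran between 433 CPM in Notch1-/- 3 and 23899 CPM in Notch1-/- 2, which is 0.0433% and 2.10% of all counts. Notch1-/- 2 was the highest library for 30 of the 43 genes and control 6 for 6 more (Ifit3, Ifit3b, Isg15, Bst2, Ifitm3 and Xaf1). The standard deviation of log2 CPM over the 26 libraries had a median of 1.75 over the 43 genes, 3.11 over the GTPases and 1.44 over the IFIT, OAS and Mx genes, against 0.434 over all genes tested.

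**Figure D1:**
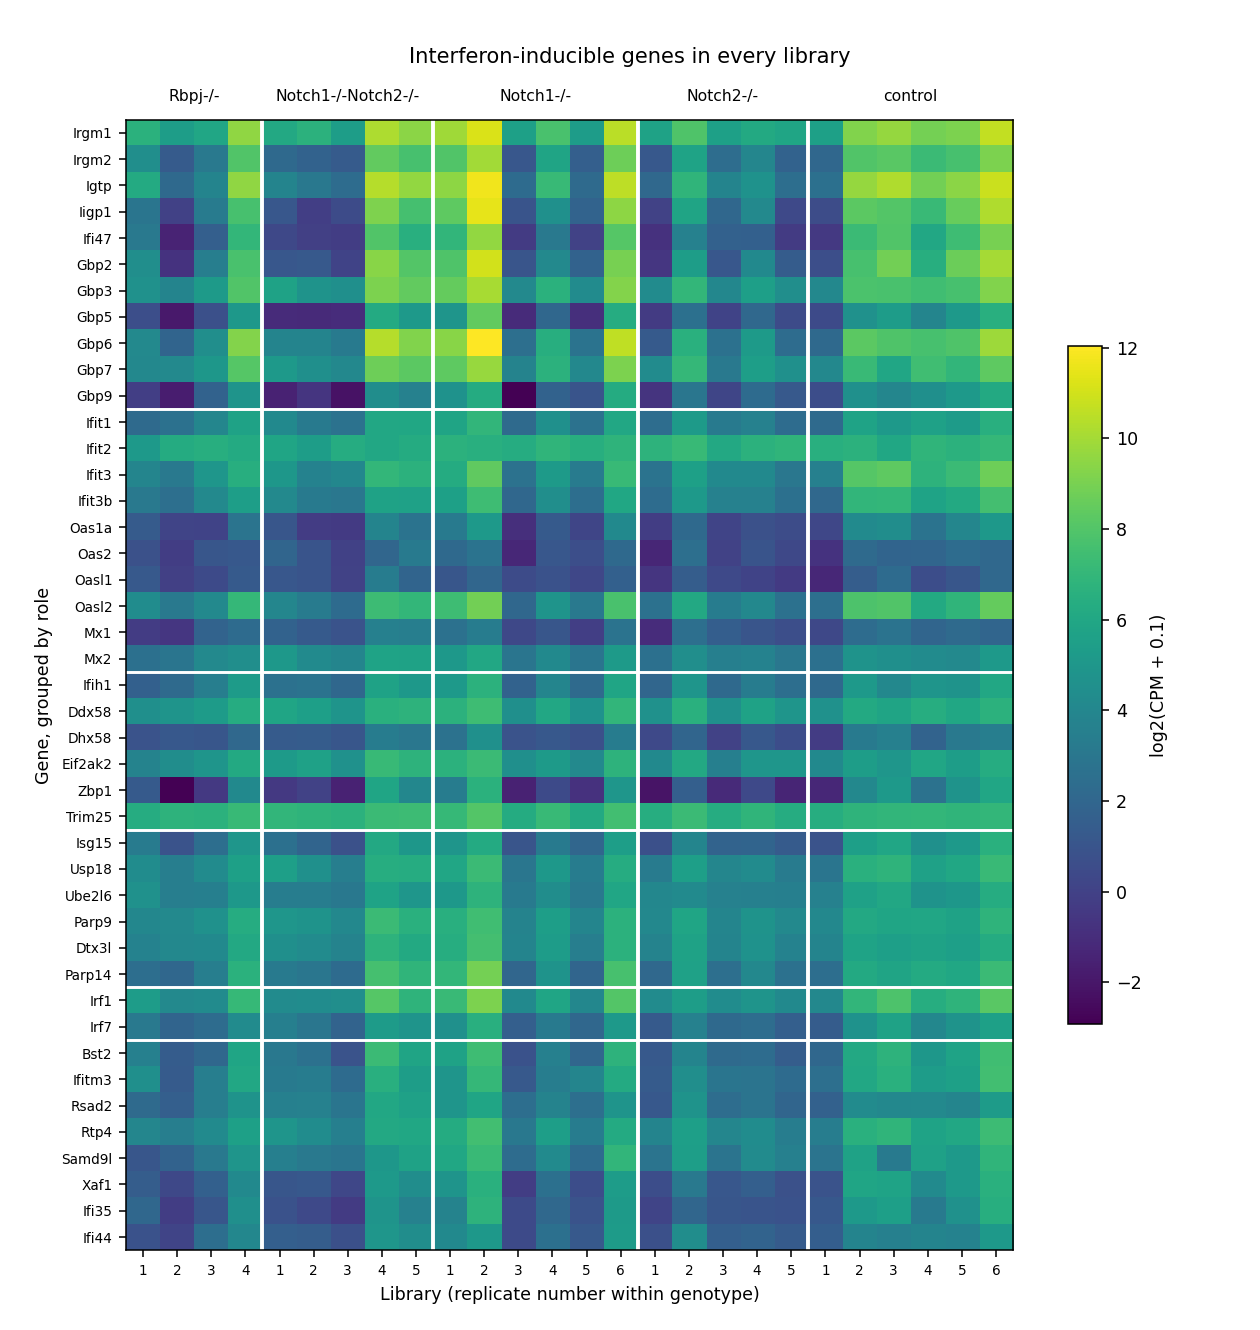
Level of each of the 43 interferon-inducible genes (down the page, grouped by role) in each of the 26 libraries (across, in blocks of genotype), as log2(CPM + 0.1) on the colour scale. Whole columns are bright or dark together, and bright and dark columns stand side by side in every genotype, with Ifit2 and Trim25 nearly even across the page.

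The IRG and GBP GTPases varied most between libraries. Igtp (Entrez 16145, chromosome 11, 58199556 to 58207592 in GRCm38), of the highest mean level among them, had 74.7, 4.41, 14.1 and 755 CPM in Rbpj-/- 1 to 4, and 14.3, 8.37, 4.99, 1346 and 769 CPM in Notch1-/-Notch2-/- 1 to 5. Its lowest, median and highest levels in Notch1-/- were 4.61, 440 and 3351 CPM. In Notch2-/- 1 to 5 it had 4.24, 115, 14.2, 26.1 and 5.59 CPM, against a lowest, median and highest of 5.84, 754 and 1859 CPM in control. Control 1 was the low control library, and the other 5 were all above every Notch2-/- library. The same libraries were high or low for Gbp6, a guanylate-binding protein (Entrez 100702, chromosome 5, 105270702 to 105295871), with 17.6, 3.65, 22.5 and 602 CPM in Rbpj-/-, 14.0, 14.0, 9.33, 1326 and 594 CPM in Notch1-/-Notch2-/-, and 5.82, 374 and 4211 CPM as the lowest, median and highest of Notch1-/-. It had 2.38, 95.8, 6.23, 36.8 and 5.07 CPM in Notch2-/-, against 4.49, 240 and 903 CPM as the lowest, median and highest of control. The ranges of all 5 genotypes overlapped for both genes.

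Over the 10 GTPases other than Gbp9, the highest library exceeded the lowest 57.8-fold to 4206-fold. Irgm1, a regulator of the other IRG proteins that loads onto the cell's own membranes, had the smallest ratio (40.7 to 2350 CPM), and Gbp2 the largest (0.4932 to 2075 CPM). Gbp9 had 1 count in its lowest library, Notch1-/- 3, and no ratio is given for it. Iigp1, an effector that breaks vacuoles, had 2902 CPM in its highest library, Notch1-/- 2, and 0.795 CPM in its lowest, Notch1-/-Notch2-/- 2. Gbp3 and Gbp7 kept a level of at least 14.1 and 8.52 CPM everywhere, while Gbp5, which lies with them and Gbp2 between 142496934 and 142638008 on chromosome 3, had 0.164 CPM in Rbpj-/- 2. Per length, the GTPase with the highest median over libraries was Irgm1 (71.6 CPM per kilobase), followed by Igtp (46.9) and Gbp3 (25.6), and the lowest was Gbp9 (1.13).

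The IFIT, OAS and Mx genes followed the same libraries over a narrower range. Oasl2, a member of the 2′-5′ oligoadenylate synthetase family, had 20.2, 8.71, 17.6 and 132 CPM in Rbpj-/- 1 to 4 and 15.0, 9.93, 4.83, 160 and 125 CPM in Notch1-/-Notch2-/- 1 to 5. Its lowest, median and highest levels were 4.11, 98.8 and 463 CPM in Notch1-/-. Notch2-/- 1 to 5 had 6.27, 69.8, 10.1, 16.3 and 6.25 CPM, against 5.81, 175 and 359 CPM as the lowest, median and highest of control. Its ratio of highest to lowest, 113, was the largest of the 10 genes and lay below that of 7 of these 10 GTPases. Ifit3 had 14.9, 8.71, 30.9 and 88.0 CPM in Rbpj-/-, 31.8, 13.1, 15.6, 124 and 105 CPM in Notch1-/-Notch2-/-, and 6.55, 57.0 and 333 CPM as the lowest, median and highest of Notch1-/-. It had 6.79, 46.9, 18.3, 17.9 and 7.91 CPM in Notch2-/-, against 11.8, 213 and 430 CPM as the lowest, median and highest of control. No Rbpj-/-, Notch1-/-Notch2-/- or Notch2-/- library reached the level of control 2, 3, 5 or 6, controls named after their values were known. Control 4, at 106 CPM, was below Notch1-/-Notch2-/- 4, and control 1 lay within the lower part of the range of the mutant libraries.

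Ifit2 stood apart from its neighbours. The IFIT genes Ifit2, Ifit3, Ifit3b and Ifit1 lie side by side between 34550550 and 34650009 on chromosome 19. The highest library exceeded the lowest 65.7-fold for Ifit3, 46.9-fold for Ifit3b and 25.6-fold for Ifit1, and 4.19-fold for Ifit2. Ifit2 had 34.1, 78.1, 89.4 and 75.7 CPM in Rbpj-/- 1 to 4, 58.5, 42.9, 79.8, 66.6 and 78.8 CPM in Notch1-/-Notch2-/- 1 to 5, and 81.1, 97.5 and 116 CPM as the lowest, median and highest of Notch1-/-. In Notch2-/- 1 to 5 it had 109, 143, 67.8, 104 and 118 CPM, against 64.1, 104 and 134 CPM as the lowest, median and highest of control. Ifit2 itself (Entrez 15958) spans 34550550 to 34576534. Control 1, low for nearly all other genes of the set, had 91.6 CPM of Ifit2. Per length, the median of Ifit2 over libraries (22.7 CPM per kilobase) was above those of Ifit3 (17.3), Ifit3b (9.91) and Ifit1 (8.00). Of the remaining genes of the group, Mx2 ran from 5.89 to 66.1 CPM, Oas1a from 0.443 to 35.2 CPM, and Mx1, Oas2 and Oasl1 stayed at or below 11.7 CPM in all 26 libraries.

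As a mean of log2 CPM over its genes, the GTPase group spanned 9.07 between the lowest and highest library and the IFIT, OAS and Mx group 4.14. The GTPase mean was 4.00 ± 2.74 in Rbpj-/-, 4.45 ± 3.35 in Notch1-/-Notch2-/-, 5.93 ± 3.61 in Notch1-/-, 3.16 ± 1.67 in Notch2-/- and 6.78 ± 2.45 in control (SD over libraries). The IFIT, OAS and Mx mean was 2.94 ± 1.01 in Rbpj-/-, 3.63 ± 1.28 in Notch1-/-Notch2-/-, 3.76 ± 1.62 in Notch1-/-, 2.68 ± 0.99 in Notch2-/- and 4.36 ± 1.33 in control. For both groups the order was the same, with control highest and Notch2-/- lowest, and every pair of neighbouring genotypes differed by less than their SD. Within a library, the GTPase mean minus the IFIT, OAS and Mx mean ran from -1.02 in Notch1-/-Notch2-/- 1 to 4.41 in Notch1-/- 2. It was 3.41 in Rbpj-/- 4, 3.53 and 2.74 in Notch1-/-Notch2-/- 4 and 5, 3.92 in Notch1-/- 6, 1.36 in Notch2-/- 2, and 2.47, 2.59 and 3.62 in control 2, 3 and 6. Single genes differed in balance between the high libraries, seen after their values were known: Gbp6 had 1535 CPM in Notch1-/- 6 and 903 CPM in control 6, whereas Ifit3 had 145 CPM in Notch1-/- 6 and 430 CPM in control 6.

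**Figure D2:**
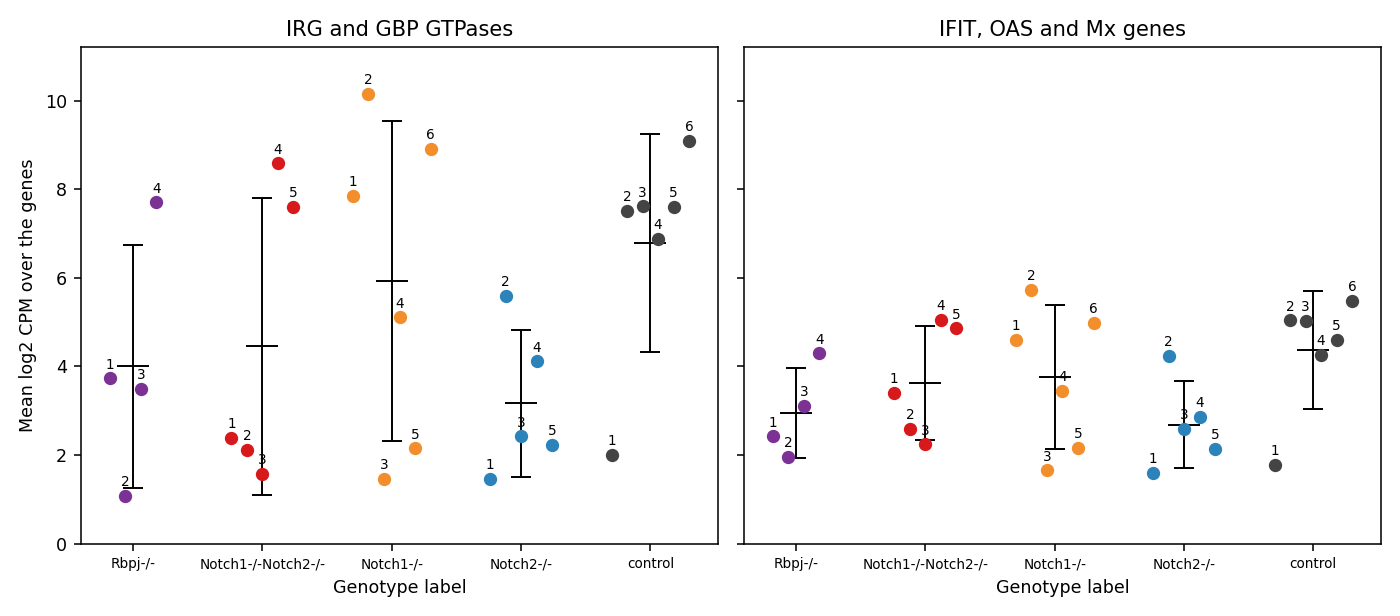
Mean log2 CPM of the 11 IRG and GBP GTPases (left) and of the 10 IFIT, OAS and Mx genes (right) by genotype label. Points are libraries with their replicate number, and bars show the mean and SD of each genotype. The GTPase points spread from 1.07 in Rbpj-/- 2 to 10.15 in Notch1-/- 2, the others from 1.59 in Notch2-/- 1 to 5.73 in Notch1-/- 2, and control 1 lies far below the other controls in both.

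**Figure D3:**
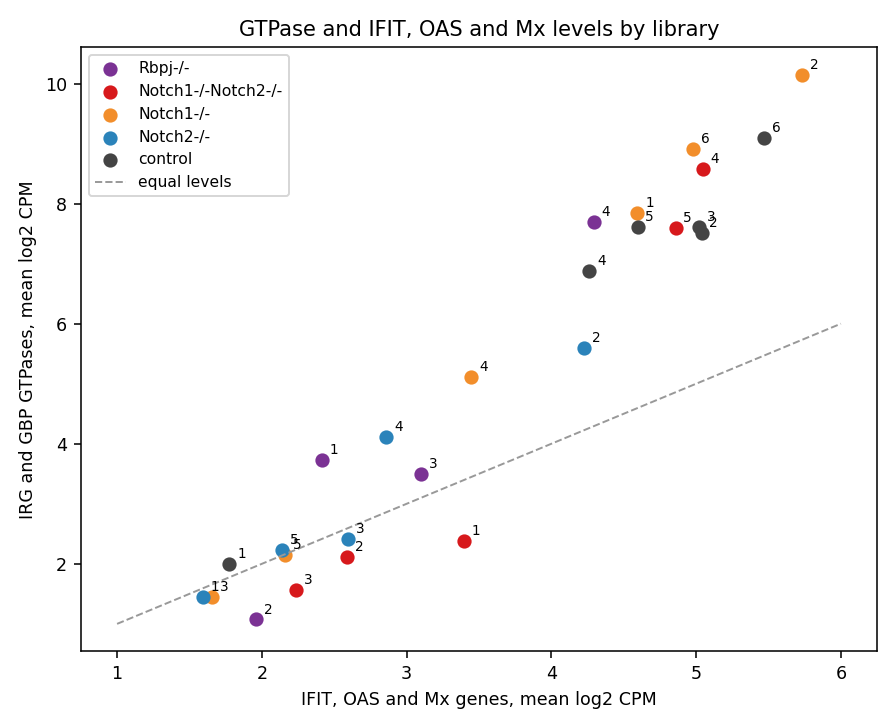
Mean log2 CPM of the IRG and GBP GTPases (vertical axis) against that of the IFIT, OAS and Mx genes (horizontal axis), 1 point per library with its replicate number, coloured by genotype. The dashed line marks equal means: low libraries lie near it, and the highest, Notch1-/- 2, lies 4.41 above it.

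Among the RNA sensors and kinases, Trim25, a ubiquitin ligase that activates the sensor encoded by Ddx58, was the least variable gene of the whole set. It had 81.9, 106, 102 and 145 CPM in Rbpj-/- 1 to 4, 121, 111, 104, 158 and 161 CPM in Notch1-/-Notch2-/- 1 to 5, and 72.9, 140 and 263 CPM as the lowest, median and highest of Notch1-/-. Its levels in Notch2-/- 1 to 5 were 84.2, 152, 79.5, 115 and 80.8 CPM, against 84.4, 119 and 128 CPM as the lowest, median and highest of control. Its highest library was 3.61-fold above its lowest, although Notch1-/- 2 was still the highest. The sensors Ddx58 and Ifih1, which detect viral RNA in the cytosol, ran from 22.6 to 168 CPM and from 3.07 to 104 CPM, and their regulator Dhx58 from 0.748 to 24.0 CPM. Eif2ak2, the RNA-dependent kinase that stops translation, ran from 11.4 to 156 CPM. Zbp1, a sensor of left-handed nucleic acid, reached 98.7 CPM in Notch1-/- 2 and had 1 count in its lowest library, Rbpj-/- 2.

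In the group of ISG15, ubiquitin and ADP-ribose enzymes, Parp14, an ADP-ribosyltransferase, had 5.50, 4.08, 10.9 and 99.8 CPM in Rbpj-/- 1 to 4, 8.94, 7.52, 4.95, 199 and 115 CPM in Notch1-/-Notch2-/- 1 to 5, and 3.71, 76.1 and 476 CPM as the lowest, median and highest of Notch1-/-. In Notch2-/- 1 to 5 it had 4.33, 49.6, 5.72, 16.7 and 6.27 CPM, against 5.60, 68.2 and 153 CPM as the lowest, median and highest of control. The high libraries were those of the GTPases, and the range of Parp14, 128-fold, was wider than the 17.8-fold of Dtx3l and the 13.0-fold of Parp9, a ligase and its partner that lie beside it on chromosome 16. Isg15, the ubiquitin-like protein itself, ran from 1.53 to 95.4 CPM, and Usp18, which removes it from proteins and dampens the type I receptor, from 7.43 to 155 CPM. Ube2l6, the enzyme that carries Isg15 to its targets, ran from 8.35 to 106 CPM.

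Irf1, a transcription factor induced by interferon gamma, had 40.1, 17.1, 19.2 and 136 CPM in Rbpj-/- 1 to 4 and 19.6, 20.1, 21.9, 270 and 111 CPM in Notch1-/-Notch2-/- 1 to 5. Its lowest, median and highest levels in Notch1-/- were 15.7, 104 and 535 CPM. Irf1 stood at 19.6, 41.5, 20.1, 28.3 and 17.9 CPM in Notch2-/- 1 to 5, against 16.6, 117 and 297 CPM as the lowest, median and highest of control. No library had less than 15.7 CPM, and the same libraries were high as for the GTPases. Irf7, the factor that amplifies type I interferon, ran from 2.36 to 92.9 CPM.

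Of the membrane and other effectors, Rtp4, a chaperone of receptors, had 15.5, 11.1, 18.6 and 48.4 CPM in Rbpj-/- 1 to 4, 29.5, 20.6, 11.5, 69.8 and 63.6 CPM in Notch1-/-Notch2-/- 1 to 5, and 8.22, 59.1 and 182 CPM as the lowest, median and highest of Notch1-/-. In Notch2-/- 1 to 5 it had 14.2, 45.7, 15.3, 20.5 and 10.6 CPM, against 10.7, 81.5 and 161 CPM as the lowest, median and highest of control. All of the Notch2-/- libraries were below control 2 to 6, while control 1 lay within their range. Ifi35 and Xaf1, a scaffold of innate signalling and an inhibitor of XIAP, covered wider ranges of 0.700 to 106 CPM and 0.759 to 96.2 CPM. Bst2, which tethers budding virus, and Ifitm3, which blocks viral entry, both peaked in control 6, at 172 and 185 CPM. The antiviral enzyme Rsad2 ran from 2.21 to 66.1 CPM, Samd9l from 2.01 to 151 CPM and Ifi44 from 1.02 to 39.4 CPM.

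Between genotypes, 1 call was made for the 43 genes over the 6 comparisons. Each was tested with edgeR's quasi-likelihood test on all 26 libraries, with Benjamini-Hochberg adjustment over all genes tested and a threshold of 0.05. The libraries of the 2 genotypes overlapped for all 43 genes in each comparison. Of all genes tested, 7.74% had no overlap in Rbpj-/- against control, 22.7% in Notch1-/-Notch2-/-, 7.66% in Notch1-/- and 1.59% in Notch2-/- against control, 4.42% in Rbpj-/- against Notch1-/-Notch2-/- and 3.75% in Notch1-/- against Notch2-/-. The comparisons with control share the control libraries. The 43 genes vary together between libraries, so counts of them below, by p or by direction, are not counts of separate events. The share over all genes beside such a count does not allow for this. Below, ± after a fold change is its standard error.

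In Rbpj-/- against control, none of the 43 genes was called, where 15.2% of all genes tested were. All 43 had a fold change below 0, with a median log2 fold change of -1.53 against 0.07 over all genes tested, -1.79 over the GTPases and -1.18 over the IFIT, OAS and Mx genes. With the microglia score as a covariate, given with the markers below, the median over the set was 0.64, though that score did not overlap control. At an unadjusted p under 0.05 there were 8 of the 43, a smaller share than the 31.3% of all genes. The Wald test of DESeq2 called 3 (Ifit3, Ifit3b and Xaf1, all lower), where it called 20.2% of all genes. Limma voom called 0, and its share over all genes is not given here. The smallest adjusted p in edgeR was that of Ifit3, at 35.6 ± 36.1 CPM in Rbpj-/- (SD, n = 4) and 216 ± 153 CPM in control (SD, n = 6), a log2 fold change of -2.60 ± 1.04 (adjusted p = 0.0878 from edgeR). Rtp4 followed at -1.84 ± 0.76 (adjusted p = 0.0998) and Ifit3b at -2.33 ± 0.97 (adjusted p = 0.1003). Without Rbpj-/- 4, the median over the GTPases was -4.44 and that over all 43 genes -2.67. Still none was called in that fit, whose share over all genes is not given here.

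In Notch1-/-Notch2-/- against control, Ifit2 fell, and it was the single call among 43 genes, a smaller share than the 37.1% of all genes called, 18.8% as lower. Ifit2 had 65.3 ± 15.4 CPM in Notch1-/-Notch2-/- (SD, n = 5) and 102 ± 23.4 CPM in control (SD, n = 6), a log2 fold change of -0.64 ± 0.22 (adjusted p = 0.0262 from edgeR). The highest Notch1-/-Notch2-/- library, at 79.8 CPM, was above the lowest control library, at 64.1 CPM. The call ended without Notch1-/-Notch2-/- 1 (adjusted p = 0.0567), Notch1-/-Notch2-/- 2 (0.0838) or control 6 (0.0660), without the 3 mixed libraries (0.0562), and with the microglia score as a covariate (0.266). DESeq2 also called Ifit2 alone of the set, with 40.9% of all genes called, and voom called Ifit2 and Ifi35, with 47.2%. Ifit3b (-1.81 ± 0.87, adjusted p = 0.102) and Ifit3 (-1.90 ± 0.92, adjusted p = 0.107) came next. At an unadjusted p under 0.05 there were 2 of the 43, where 46.8% of all genes were. Of the 43 genes 33 had a fold change below 0, with a median of -0.68 against 0.01 over all genes, -0.97 over the GTPases and -0.57 over the IFIT, OAS and Mx genes. Without Notch1-/-Notch2-/- 4 the GTPase median was -2.08, and without control 6 it was -0.31. With the microglia covariate, a score that did not overlap control, the median over the set was 2.25.

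In Notch1-/- against control edgeR called no gene of the set, where it called 26.7% of all genes. None of the set had an unadjusted p under 0.05 in edgeR, where 41.1% of all genes did. DESeq2 and voom called 0 of the set as well, and their shares over all genes are not given here. The fold change was above 0 for 26 of the 43 and below 0 for 17, among them 7 of the 10 IFIT, OAS and Mx genes and 0 of the 11 GTPases. The median log2 fold change was 0.12 over the set, against 0.03 over all genes, 0.37 over the GTPases and -0.18 over the IFIT, OAS and Mx genes. Without Notch1-/- 2 the GTPase median was -0.59 and the median of the set -0.53, and limma voom gave medians of -1.30 over the GTPases and -0.50 over the set. With the microglia covariate, a score that did not overlap control, the median was 2.28 over the set and 1.57 over the IFIT, OAS and Mx genes. The 3 genes with the smallest adjusted p were Trim25 (146 ± 71.1 CPM in Notch1-/- and 115 ± 15.9 CPM in control, SD, n = 6 each; log2 fold change 0.35 ± 0.24, adjusted p = 0.280 from edgeR), Ifit3 (-1.09 ± 0.84, adjusted p = 0.334) and Eif2ak2 (0.68 ± 0.55, adjusted p = 0.351).

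In Notch2-/- against control, none of the 43 genes was called in edgeR, where 0.295% of all genes were. Of the 43, 42 had a fold change below 0, all but Ifit2, and 25 had an unadjusted p under 0.05, where 14.8% of all genes did, among them 9 of the 11 GTPases and 4 of the 10 IFIT, OAS and Mx genes. The median log2 fold change was -2.37 over the set, against 0.01 over all genes, -3.73 over the GTPases and -1.41 over the IFIT, OAS and Mx genes. Without Notch2-/- 2 these medians were -2.96 over the set, -4.66 over the GTPases and -2.16 over the IFIT, OAS and Mx genes. DESeq2 called 12 of the 43, all lower, where it called 2.20% of all genes, and voom called Ifit3 alone, where it called 11.5%. A fit of these 2 genotypes alone called Xaf1, Bst2 and Ifi35, where it called 1.21% of all genes. Ifit3 had 19.6 ± 16.2 CPM in Notch2-/- (SD, n = 5) and 216 ± 153 CPM in control (SD, n = 6), a log2 fold change of -3.46 ± 0.99 (adjusted p = 0.152 from edgeR). Ifi35 had 2.10 ± 1.09 CPM in Notch2-/- and 34.5 ± 30.6 CPM in control (-4.04 ± 1.23, adjusted p = 0.176), and Xaf1 3.33 ± 2.99 CPM in Notch2-/- and 43.7 ± 33.1 CPM in control (-3.72 ± 1.19, adjusted p = 0.197). Notch2-/- 2 was the highest Notch2-/- library for these 3 genes, and control 1 the lowest control library.

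In Rbpj-/- against Notch1-/-Notch2-/-, by their labels the deletion of the common partner and that of both receptors, edgeR called none of the 43 genes. Of all genes it called 0.794%. In edgeR 1 of the 43 had an unadjusted p under 0.05, where 12.3% of all genes did. DESeq2 and voom called 0 of the set, and their shares over all genes are not given here. The fold change was below 0 for 41 of 43, with a median of -0.95 against 0.06 over all genes, and this median was -0.15 without Notch1-/-Notch2-/- 4. Limma voom with weights on the libraries gave a median of 0.26 over the set and 1.25 over the GTPases. The GTPase median of -1.01 was -3.78 without Rbpj-/- 4 and 0.08 without Notch1-/-Notch2-/- 4. Mx2, which in Rbpj-/- 1 to 4 had 5.92, 7.40, 17.2 and 22.3 CPM against 33.4, 18.6, 14.9, 52.98 and 52.5 CPM in Notch1-/-Notch2-/- 1 to 5, had the smallest adjusted p (-1.38 ± 0.60, adjusted p = 0.344 from edgeR). Mx2 encodes an antiviral GTPase. It was followed by Oasl1 (-1.13 ± 0.66, adjusted p = 0.488) and Eif2ak2 (-1.09 ± 0.65, adjusted p = 0.494).

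In Notch1-/- against Notch2-/- none of the 43 genes was called in edgeR, where 3.09% of all genes were, and 32 had an unadjusted p under 0.05, where 18.8% of all genes did, including all 11 GTPases and 5 of the 10 IFIT, OAS and Mx genes. Fold changes were above 0 for all except Ifit2, with a median of 2.34 against 0.02 over all genes, 4.86 over the GTPases and 1.48 over the IFIT, OAS and Mx genes. DESeq2 called 16 of the 43, all higher, where it called 7.04% of all genes. Voom called 0, and its share over all genes is not given here. Ifi35 had 27.2 ± 40.7 CPM in Notch1-/- (SD, n = 6) and 2.10 ± 1.09 CPM in Notch2-/- (SD, n = 5), a log2 fold change of 3.70 ± 1.21 (adjusted p = 0.0945 from edgeR). Irf1 had 173 ± 200.4 CPM in Notch1-/- and 25.5 ± 9.81 CPM in Notch2-/- (2.76 ± 0.91, adjusted p = 0.0961), and Dhx58 7.65 ± 8.67 CPM in Notch1-/- and 1.89 ± 1.13 CPM in Notch2-/- (2.02 ± 0.71, adjusted p = 0.116). Without Notch1-/- 5, one of the low Notch1-/- libraries, Irf1 was called (adjusted p = 0.0480 from edgeR), in a fit whose share over all genes is not given here. Without Notch1-/- 2 the median was 1.52 over the set, 3.23 over the GTPases and 0.92 over the IFIT, OAS and Mx genes.

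**Figure D4:**
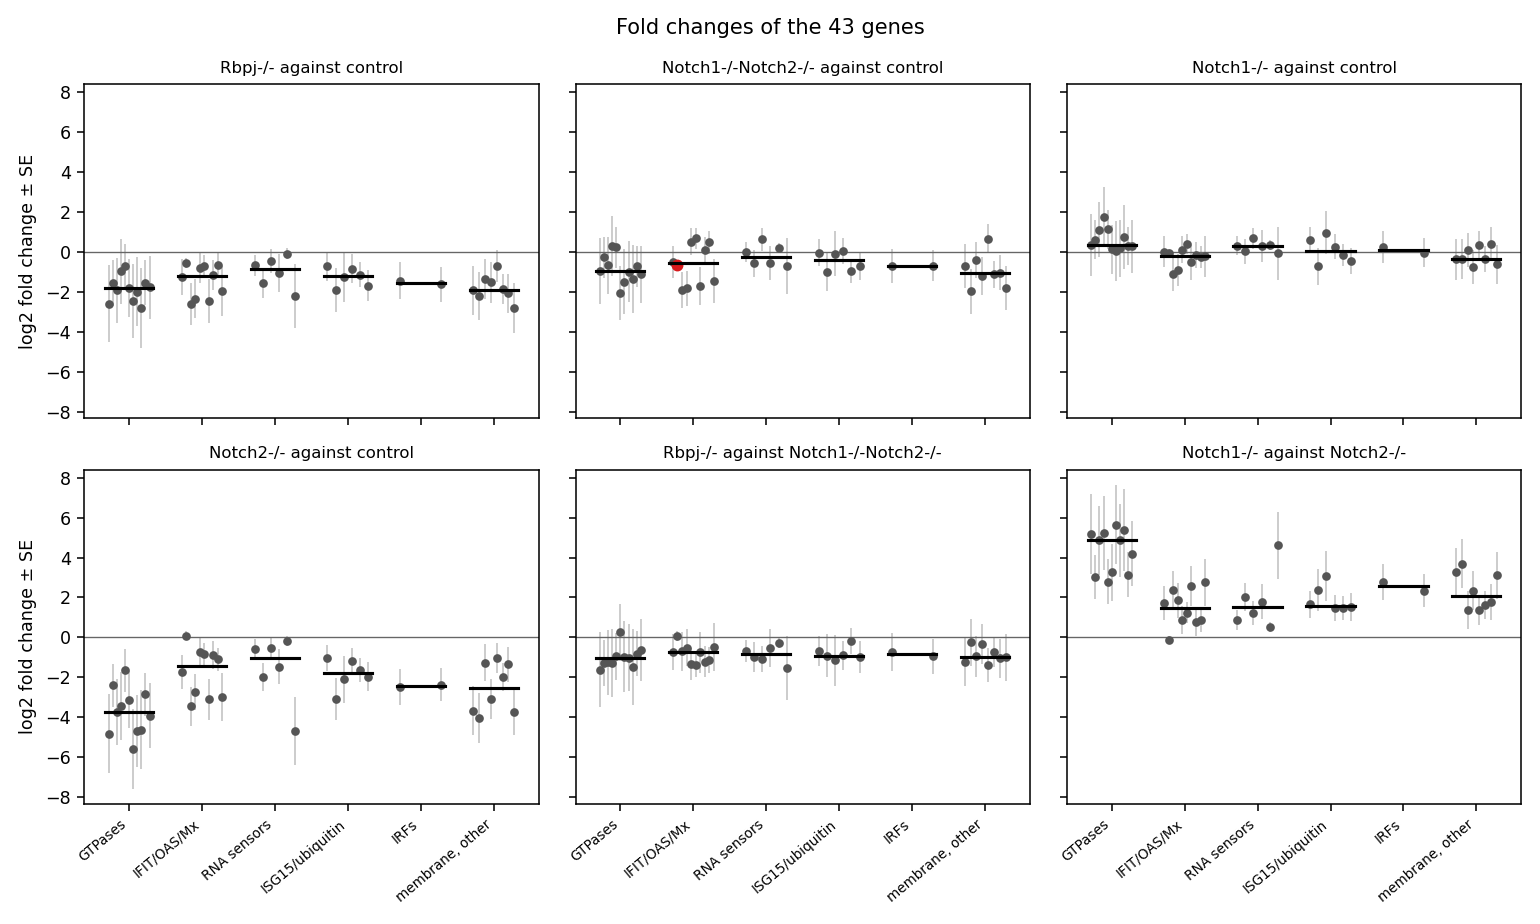
Log2 fold change of each of the 43 genes with its standard error in the 6 comparisons, by role, with the first-named genotype over the second. Black bars are medians of the role and the red point, Ifit2 in Notch1-/-Notch2-/- against control, is the single call; the GTPase median is -3.73 in Notch2-/- against control and 4.86 in Notch1-/- against Notch2-/-, where it is 3.23 without Notch1-/- 2.

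The genes that lie upstream of the set were read from a list of ligands, receptors and kinases, signal transducers and inhibitors. Interferon RNA was scarce: Ifng had 63 counts in all, in 10 libraries, of which 20 were in Notch1-/- 2 and 19 in control 5. Ifnb1 had 2 counts and Ifna2 3 over all libraries, Ifna4 had 16 counts, all in control 2, and Ifne and Ifnk had none. The 6 ligands were too low to be tested. The receptor gene Ifnar1, for type I interferon, varied little between 80.2 and 142 CPM, and so did Ifngr1, for interferon gamma, between 27.03 and 51.6 CPM.

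Of the 7 receptors and kinases tested, Ifngr1 fell in Rbpj-/- against control (-0.43 ± 0.11, adjusted p = 0.0164 from edgeR) and in Notch1-/- against control (-0.39 ± 0.10, adjusted p = 0.00801). The kinase gene Jak1 fell in Notch1-/-Notch2-/- (-0.51 ± 0.13, adjusted p = 0.00517), and Jak2 rose in Notch1-/- (0.76 ± 0.28, adjusted p = 0.0466). None of the 7 was called in the other 3 comparisons. Of all genes tested, 15.2% were called in Rbpj-/-, 37.1% in Notch1-/-Notch2-/- and 26.7% in Notch1-/-, each against control, so that single calls are common there. Of the 7 signal transducers and factors, Irf2, a repressor that competes with Irf1, fell in Notch1-/-Notch2-/- against control (-0.50 ± 0.18, adjusted p = 0.0338), and no other call was made in any comparison. Of the 4 inhibitors Socs3 rose in Rbpj-/- (1.45 ± 0.41, adjusted p = 0.0230) and in Notch1-/-Notch2-/- (1.34 ± 0.39, adjusted p = 0.0108), both against control. Nlrc5, the activator of MHC class I genes, ran from 0.677 CPM in Notch2-/- 1 to 851 CPM in Notch1-/- 2.

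Markers of other cells in the sort did not move with the set in a single way. The summed level of 21 microglia and macrophage markers was 148 to 259 CPM in Rbpj-/-, 57.9 to 181 CPM in Notch1-/-Notch2-/-, 64.7 to 300 CPM in Notch1-/-, 344 to 808 CPM in Notch2-/- and 409 to 1679 CPM in control. Of these markers 19 fell in Rbpj-/-, 20 in Notch1-/-Notch2-/- and all 21 in Notch1-/-, each against control, and none was called in Notch2-/- in edgeR, with 9 at an unadjusted p under 0.05. In Notch1-/- against Notch2-/-, 12 of the 21 fell, as did 8 of 10 endothelial and 7 of 8 astrocyte markers and 0 of 7 markers of mature oligodendrocytes, of which 4 had an unadjusted p under 0.05 in edgeR. Control 1 had 1281 CPM of these markers with a mean log2 CPM of the 43 genes of 2.20, and Notch1-/- 2 had 300 CPM with a mean of 7.50. Markers of other brain cells fell in the same genotypes, each against control: 8 of 10 endothelial markers in Rbpj-/-, 10 in Notch1-/-Notch2-/- and 9 in Notch1-/-, 6 of 8 astrocyte markers in Rbpj-/-, 8 in Notch1-/-Notch2-/- and 7 in Notch1-/-, and 6 of 7 markers of mature oligodendrocytes in Rbpj-/-, 7 in Notch1-/-Notch2-/- and 5 in Notch1-/-. None of these was called in Notch2-/- in edgeR, with 1 endothelial marker at an unadjusted p under 0.05. Of 2 dendritic cell markers tested 1 fell in Notch1-/-Notch2-/-, and of 10 glioma and precursor markers 2 did, near the 18.8% of all genes called lower there. In either direction edgeR called 15.2% of all genes in Rbpj-/-, 37.1% in Notch1-/-Notch2-/-, 26.7% in Notch1-/- and 0.295% in Notch2-/-, each against control. In Notch1-/- against Notch2-/- it called 3.09%. At an unadjusted p under 0.05 the share was 14.8% in Notch2-/- against control and 18.8% in Notch1-/- against Notch2-/-. With the microglia marker score as a covariate, 0 of the 43 genes were called in each comparison with control in edgeR, where the share of all genes called was 0.0192% in Rbpj-/-, 1.11% in Notch1-/-Notch2-/-, 0.0704% in Notch1-/- and 0.128% in Notch2-/-. In the same fit 6 were called higher in Notch1-/- against Notch2-/- (Irf1, Irf7, Gbp5, Ube2l6, Ifi35 and Dhx58), where 1.91% of all genes were called. The median over the set was 0.64 in Rbpj-/-, 2.25 in Notch1-/-Notch2-/-, 2.28 in Notch1-/- and -1.36 in Notch2-/-, all against control. This score, a mean of log2 CPM, ran from 0.473 to 2.82 in Notch1-/-, 3.24 to 4.60 in Notch2-/- and 3.55 to 5.47 in control. Rbpj-/- (2.09 to 2.74) and Notch1-/-Notch2-/- (0.381 to 2.34) also lay below control. Except in Notch2-/- against control, the genotypes compared here did not overlap, so that these fits cannot separate the score from genotype.

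Of 13 T and NK cell markers 12 were in the table, with a summed level of 0.412 to 2.83 CPM in Rbpj-/-, 0.373 to 5.98 CPM in Notch1-/-Notch2-/-, 0.235 to 13.4 CPM in Notch1-/-, 0.378 to 0.931 CPM in Notch2-/- and 0.265 to 5.51 CPM in control. The highest sums were those of Notch1-/- 2 (13.4 CPM), Notch1-/-Notch2-/- 4 (5.98 CPM), control 6 (5.51 CPM) and Notch1-/- 6 (5.22 CPM), libraries that were also high for the 43 genes, and the sum was 0.265 CPM in control 1. Of these markers, Cd3e and Cd8a were at 0 in 14 and 15 of the 26 libraries, and at 0.985 and 2.52 CPM in Notch1-/- 2. Notch2-/- 2 and Notch1-/- 4, with mean log2 CPM of the 43 genes of 4.78 and 4.18, had 0 of both and sums of 0.380 and 0.235 CPM. Of the 12 markers, 5 had a count in Notch2-/- 2 and 3 in Notch1-/- 4. In the other libraries high for the set, 9 (control 2) to 12 had a count. In the libraries low for the set it was 1 (Notch2-/- 1) to 10 (Rbpj-/- 1). None of the 7 markers tested was called in any comparison in edgeR, with 6 at an unadjusted p under 0.05 in Notch2-/- against control and 7 in Notch1-/- against Notch2-/-. Of all genes, 14.8% and 18.8% had such a p in these 2 comparisons. The 4 libraries with Xist and no Ddx3y, Rbpj-/- 2, Notch1-/-Notch2-/- 1 and 2 and control 1, had means of 1.88, 3.15, 2.80 and 2.20, and the mixed libraries Notch2-/- 3, Notch2-/- 4 and control 6 had 2.60, 3.43 and 6.91. The part of T and NK cells and of sex in the levels of the set was not tested.

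**Figure D5:**
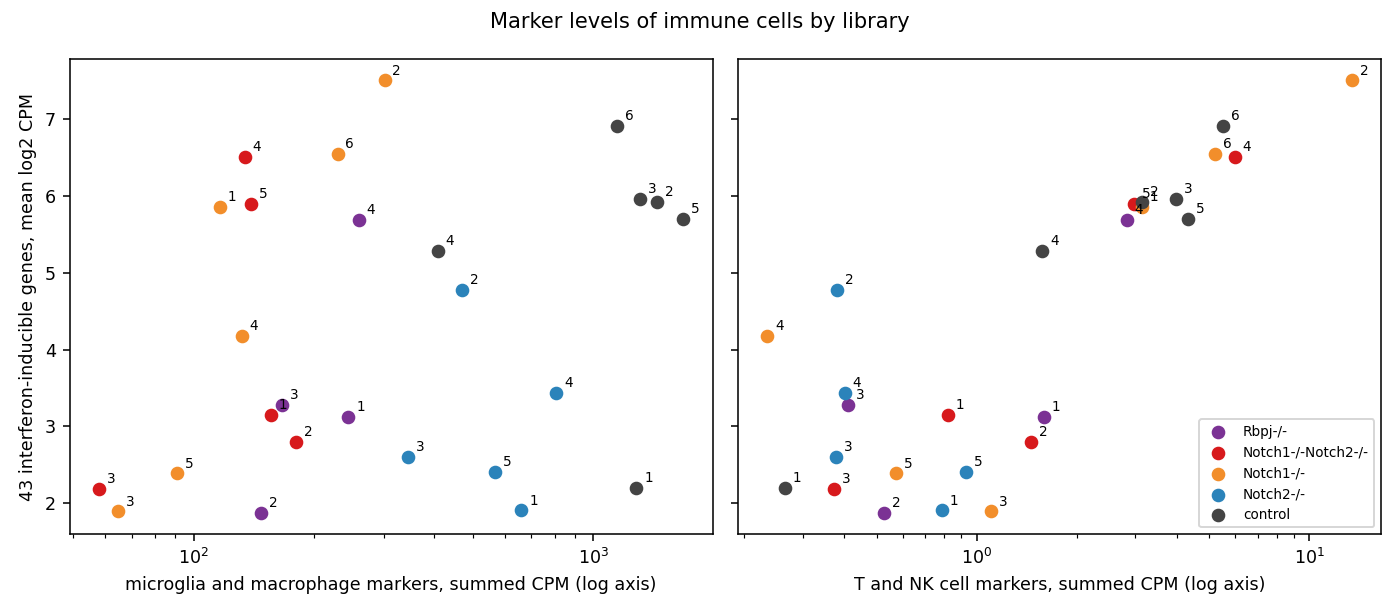
Mean log2 CPM of the 43 interferon-inducible genes (vertical axis) against the summed CPM of microglia and macrophage markers (left) and of T and NK cell markers (right), each on a log horizontal axis, with 1 point per library and its replicate number. Control 1 lies low at 1281 CPM of microglia markers and at 0.265 CPM of T and NK cell markers, and Notch1-/- 2 lies highest at 300 and 13.4 CPM.

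Counting can blur some of these genes. In GENCODE M21, 19 of the 44 listed genes have an exon that another gene overlaps, 8 of them on the same strand, and how the counting treated strand and overlaps is not given in the sources used here. Gbp6 shares 1726 exonic bases with Gm43302, Igtp and Irgm2 share 162 with each other, and Dtx3l and Parp9 overlap by 458 on opposite strands, so that their counts are uncertain to that extent. The near-identical genes Ifit3 and Ifit3b may also have exchanged reads.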

How the data were processed

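Raw counts per gene for 26 libraries were used as the authors deposited them, with Entrez identifiers and gene lengths. Per the labels' protocols total RNA of sorted cells was made into stranded libraries, and per the submitters' processing notes reads were aligned with STAR to mm10. No label or header used here names the counting tool, its annotation or its strand setting. Identifiers were matched to RefSeq symbols, and 80 of 24454, with 0.348% of counts, had no match. Genotypes come from the titles. The genes of the set and the marker and pathway lists were chosen with earlier results of these data known.

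In R 4.3.3, edgeR 4.0.16 filtered low counts with filterByExpr, scaled by TMM and fitted 1 quasi-likelihood model of genotype over all 26 libraries. P-values were adjusted by Benjamini-Hochberg over 15617 genes, with a threshold of 0.05, and the standard error is the size of the log2 fold change divided by the square root of F. Log2 CPM used a prior count of 2. The steps were run on simulated counts with known fold changes in Rbpj-/-. Genes varied independently there, unlike those of the set, so that the run does not show how the test behaves for the set. No libraries of a genotype were alike within sampling noise: over 56 pairs log2 CPM correlated at 0.900 to 0.984, and the lowest chi-square of counts per gene was 43.5.

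Fold changes are given for the 3 genes of the set with the smallest adjusted p in each comparison. Levels are given by library for these or for the genes of highest mean CPM in each role, and other genes by their range. Alternatives were the size factors and Wald test of DESeq2 1.42.0, voom with quality weights in limma 3.58.1, no filter on low counts, a block on replicate number, a fit on the 2 genotypes alone, a microglia score as covariate, and leaving out each library. Leaving out the 3 mixed libraries was chosen after seeing the data. Promoter sequences and gene positions are those of RefSeq, GRCm38.p6, and exon overlaps those of GENCODE M21.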

Additional observations from a re-analysis of the deposited data

Results flagged for a closer look

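Control 1 stood below the other 5 control libraries by a gap that took up an unusual share of the whole range of the 6. On the log2 CPM scale the gap was 0.758 of the range for Igtp, 0.748 for Irgm2, 0.720 for Gbp6, 0.689 for Ifi47, 0.684 for Iigp1 and 0.654 for both Irgm1 and Gbp3. Among the IFIT, OAS and Mx genes it was 0.840 for Oas2, 0.686 for Ifit1, 0.672 for Mx1 and 0.664 for Ifit3b. It was 0.7095 for Trim25, 0.699 for Dtx3l, 0.694 for Parp14, 0.650 for Isg15 and 0.635 for Usp18. The mean log2 CPM of control 1 was set apart in the same way for all 43 genes (0.656), the GTPases (0.689), the IFIT, OAS and Mx genes (0.672), the ISG15, ubiquitin and ADP-ribose enzymes (0.663) and the RNA sensors and kinases (0.662).

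Among the 5 Notch2-/- libraries, Notch2-/- 2 was above the rest for Irgm1 by 0.744 of the range. Chance alone sets apart about 1 in 20 groups, and 215 groups of gene levels and 35 of means were examined, of which 17 and 5 were set apart. The genes vary together, so these are not separate events.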

How the results depend on the processing

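The count of genes called depended on the test. Where DESeq2 or voom called 0 of the set, their share over all genes is not given here. In Rbpj-/- against control it was 3 with the Wald test of DESeq2, against 0 in edgeR. In Notch2-/- against control it was 12 with DESeq2, 1 with voom (Ifit3) and 3 in a fit of those 2 genotypes alone (Xaf1, Bst2 and Ifi35, with 1.21% of all genes called), against 0. In Notch1-/- against Notch2-/- it was 16 with DESeq2 and 6 with the microglia score as covariate, against 0. In Notch1-/-Notch2-/- against control it was 2 with voom (Ifit2 and Ifi35), and 0 with that covariate or without the 3 mixed libraries, against 1. The cause was not tested. With the covariate the log2 fold change of Rtp4 in Rbpj-/- turned to 0.0092, those of Ifit3b and Ifit3 in Notch1-/-Notch2-/- to 1.15 and 1.52, and that of Ifit3 in Notch1-/- to 1.58, all against control and none called. In these comparisons the microglia score did not overlap between the genotypes, so that its part cannot be told from that of genotype.

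Leaving out 1 library at a time gave 0 to 1 calls in Notch1-/-Notch2-/- against control, 0 to 1 in Notch1-/- against Notch2-/- and 0 in the other 4 comparisons. The share of all genes called in these fits is not given here. The call of Ifit2 was lost without Notch1-/-Notch2-/- 1, Notch1-/-Notch2-/- 2 or control 6 (adjusted p = 0.0567, 0.0838 and 0.0660 from edgeR), and Irf1 was called without Notch1-/- 5 (adjusted p = 0.0480). With replicate number as a block, 0 genes of the set were called in every comparison, where the share of all genes called was 8.35% in Rbpj-/-, 33.6% in Notch1-/-Notch2-/-, 24.9% in Notch1-/- and 0.16% in Notch2-/-, each against control, 0.32% in Rbpj-/- against Notch1-/-Notch2-/- and 1.92% in Notch1-/- against Notch2-/-. Without the block Ifit2 was called in Notch1-/-Notch2-/- against control (adjusted p = 0.0702 from edgeR with it). The numbers did not pair the libraries: over 47 pairs of libraries of the same number the deviations from the genotype means correlated at -0.417 to 0.627 (median -0.0444), and 4 of 26 libraries correlated best with their own number.

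Depth limits Gbp9 and Zbp1, with 1 count in their lowest library, and the interferon genes. The mean log2 CPM of the 43 genes had an SD of 1.12 to 2.29 within genotypes, which limits what 4 to 6 libraries can show.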
